A study of Mus musculus with 19 samples.

Results

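The livers of 5 malnourished and 5 control XX mice were compared by RNA sequencing, across all genes expressed in liver. They are the 10 XX libraries of a series of 19, and they were chosen by their label numbers, with no measured value used. All mice were wild type C57BL/6J and were 8 weeks old. Control mice had a purified diet of 15% fat, 20% protein and 65% carbohydrate. Malnourished mice had a low-protein low-fat diet of equal calories, with 5% fat, 7% protein and 88% carbohydrate. Nursing dams were put on either diet when their pups were 8 days old, and the pups were weaned at day 21 to the diet of their dam for 5 more weeks. The diet therefore changed protein, fat and carbohydrate together, and it acted through the dam before weaning. The labels give no litter or cage, so mice of a group may share a dam, and p-values measure the spread between the animals fitted. The 9 XY libraries of the series (4 control, 5 malnourished, same strain, age and diets) shared the model fit. Their spread therefore enters the SE and p-values of the XX comparison, also where a gene was not called. Otherwise they served only to test where the XX response differed from theirs.

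The liver adjusts its enzymes to what is eaten. When an amino acid is scarce, uncharged tRNAs activate the kinase GCN2, and the transcription factor ATF4 raises genes that make, import and charge amino acids. The enzymes that degrade amino acids and turn their nitrogen into urea follow protein intake, and the enzymes that turn sugar into fat follow carbohydrate and insulin. The mouse liver is also sexually dimorphic, because the pulses of growth hormone differ between the sexes, and growth hormone in turn drives hepatic production of IGF1. The liver makes most plasma proteins, among them clotting factors, complement and acute phase proteins.

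The XX control libraries held 21377385 to 33501907 counts and the malnourished ones 26276886 to 32741092. Levels are given as CPM, counts scaled to a common library total with TMM, a factor that corrects for library composition, and values listed for a group run from replicate 1 to replicate 5. Of 21950 genes in the table, 13391 had enough counts to be tested. A gene is called, and said to have risen or fallen, where the Benjamini-Hochberg adjusted p of the edgeR quasi-likelihood test was below 0.05. In malnourished XX livers 691 genes rose (5.16% of those tested) and 668 fell (4.99%), so 10.1% were called in either direction. These shares are the background for every list count below. The CPM values of the diet groups did not overlap for 983 called genes and overlapped for 376. Over all tested genes, 10.19% had no overlap. Of the called genes, 242 were at least 2-fold higher and 200 at least 2-fold lower, and the median log2 change over all tested genes was -0.01. Without XX control 3 the counts were 473 higher and 433 lower. With scaling by library size alone, which moved the median of all genes by 0.10 on the log2 scale, 1161 were higher and 425 lower, so 73.2% of calls were higher in place of 50.8%. Changes below are relative to that composition, and list medians within 0.1 of zero have no settled sign.

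The first principal component of the 10 libraries held 45.5% of the variance and separated the diets, with controls from -33.8 to -21.9 and malnourished libraries from 22 to 32.7. The second held 12.6% and spread the controls (-33.4 for control 5 to 29.8 for control 2) more than the malnourished libraries (-5.1 to 9.3). Control 5 is also the single XX library whose label number begins with 62. In it Srebf1 and Cyp7a1, genes of lipid and bile acid synthesis, were each the highest of the 5 controls. Cyp7a1 was at 204 CPM in control 5 against 19.1 to 40.3 in the other controls. Without control 5 the counts were 619 higher and 625 lower. Hepatocyte markers identified the tissue: Alb, serum albumin, was at 124140 ± 15863 CPM in controls and 119050 ± 7071 in malnourished livers (SD, n = 5 each; log2 change -0.06, SE 0.13, adjusted p = 0.83).

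Genes that make amino acids were among those that rose most in malnourished livers. Of 35 tested members of a list of ATF4 amino acid response genes (36 were written and 1 did not pass the expression filter), 12 rose and 1 fell, against 5.16% and 4.99% of all genes. The median log2 change of the list was 0.31. The enzymes of asparagine, serine and proline synthesis led it. Asns, asparagine synthetase (ENSMUSG00000029752, chr6:7675169-7693254, mm10), was at 0.709, 0.624, 0.71, 0.446 and 0.486 CPM in controls and 7.58, 8.33, 24.0, 24.7 and 27.1 CPM in malnourished livers. The groups did not overlap, and malnourished 1 and 2 were the lowest of their group. The log2 change was 4.95 (SE 0.45, adjusted p = 6.79e-07), or 30.9-fold.

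The promoter of Asns is the textbook site of this response, so its sequence is shown with that of other members. The core searched for was TGATGNAA, to which ATF4 and a C/EBP partner are known to bind, on both strands of windows from 250 bases before to 50 after each RefSeq start site (build GRCm38.p6, the same assembly as mm10). The 150 bases before the start site of Asns (chr6:7693210-7693359, minus strand) are printed first, with the match in capitals:
Asns: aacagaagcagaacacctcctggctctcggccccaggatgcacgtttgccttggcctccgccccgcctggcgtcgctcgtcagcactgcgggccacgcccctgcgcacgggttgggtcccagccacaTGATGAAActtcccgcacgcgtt
Matches in 6 of the 9 other members that hold the core follow (Aars, Trib3 and Vldlr, none of them called, are not printed), with 11 bases on either side, each written on the strand that matches, first for 3 genes that rose and then for 3 that did not pass the test:
Pycr1: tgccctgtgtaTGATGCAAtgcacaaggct
Nupr1: caagccctgtcTGATGCAAtctggcccttt
Gars: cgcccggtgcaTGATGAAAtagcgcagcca
Atf3: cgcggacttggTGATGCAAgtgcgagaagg
Chac1: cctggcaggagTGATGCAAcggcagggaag
Tars: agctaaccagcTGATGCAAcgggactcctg
The match began 23 bases before the start site in Asns, 103 before it in Pycr1 (chr11:120643833-120643862 with its flanks), 110 in Nupr1 (chr7:126625562-126625591) and 30 in Gars (chr6:55037960-55037989). These distances are from RefSeq start sites. The GENCODE coordinates reach further upstream for Asns (to chr6:7693254) and Nupr1 (to chr7:126630861). By those coordinates the matches of Asns and Nupr1 lie inside the gene. The core was in 10 of 34 windows (29.4%) of tested list members that matched the promoter table, which hold 29 genes. It was in 318 of 13341 windows (2.38%) of all tested genes and in 3.97% of 32851 windows of the whole table. Of the 12 windows of members that rose, 4 held it. No match was found in the windows of Aldh18a1, Psat1 and Phgdh, so the members with the core and the members that rose are not the same genes. Atf3 (log2 change 0.17, adjusted p = 0.78) and Tars (0.00, adjusted p = 0.99) hold the core and were not called. Chac1 was at 1.03 (SE 0.35, adjusted p = 0.071), but was called with the XX libraries fitted alone (1.04, adjusted p = 0.0084). It was also called by limma-voom (adjusted p = 0.027), with library size alone (0.044) and without the 3 libraries numbered 62 (0.032). Without XY control 4 (adjusted p = 0.047), XY malnourished 4 (0.034) or XY malnourished 5 (0.039) it was called too.

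Serine is made from a glycolytic intermediate by Phgdh, Psat1 and Psph. Phgdh, which catalyses the first step (ENSMUSG00000053398, chr3:98313170-98339990), was at 0.331, 0.4927, 0.207, 0.416 and 0.312 CPM in controls and 1.83, 2.08, 6.36, 7.99 and 11.7 CPM in malnourished livers. It rose 16.9-fold (log2 change 4.08, SE 0.59, adjusted p = 1.08e-04). Psat1, the second enzyme, was at 1.49 ± 0.487 and 17.9 ± 10.5 CPM (SD, n = 5 each) and rose by 3.56 on the log2 scale (SE 0.48, adjusted p = 5.65e-05). For both genes, as for Asns, malnourished 1 and 2 were the lowest of their group and still above every control. Psph, the last enzyme, rose less, by 0.85 (SE 0.19, adjusted p = 0.0064).

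Proline and arginine precursors are made by Aldh18a1 and Pycr1. Aldh18a1 was at 1.84, 2.56, 2.78, 3.74 and 3.64 CPM in controls and 13.9, 17.3, 15.7, 18.7 and 19.01 CPM in malnourished livers, a rise of 2.53 on the log2 scale (SE 0.27, adjusted p = 3.79e-06). Here the malnourished libraries lay close together. Pycr1 rose by 1.81 (SE 0.25, adjusted p = 6.08e-05). Other members that rose were Nupr1, a stress-induced chromatin protein (1.6, SE 0.33, adjusted p = 0.0034), Mthfd2, a mitochondrial folate enzyme (1.5, SE 0.35, adjusted p = 0.0087), and Gars, glycyl-tRNA synthetase (0.45, SE 0.11, adjusted p = 0.012). The groups of Mthfd2 overlapped. Cth, which cleaves cystathionine to cysteine, was the member that fell, by 0.97 (SE 0.14, adjusted p = 1.02e-04). Atf4 itself was at 124 ± 18.6 and 140 ± 12.9 CPM (SD, n = 5 each; adjusted p = 0.46), Ddit3 at 9.21 ± 1.42 and 10.8 ± 0.661 CPM (adjusted p = 0.42) and Trib3 at 11.4 ± 4.94 and 9.50 ± 2.03 CPM (adjusted p = 0.66). None of these 3 was called, and ATF4 is known to be set mainly by translation of its mRNA. No chaperone or stress gene of the unfolded protein response was called among 20 tested, where edgeR gave 5 at an unadjusted p below 0.05, DESeq2 called 0 and limma-voom 2.

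**Figure D1:**
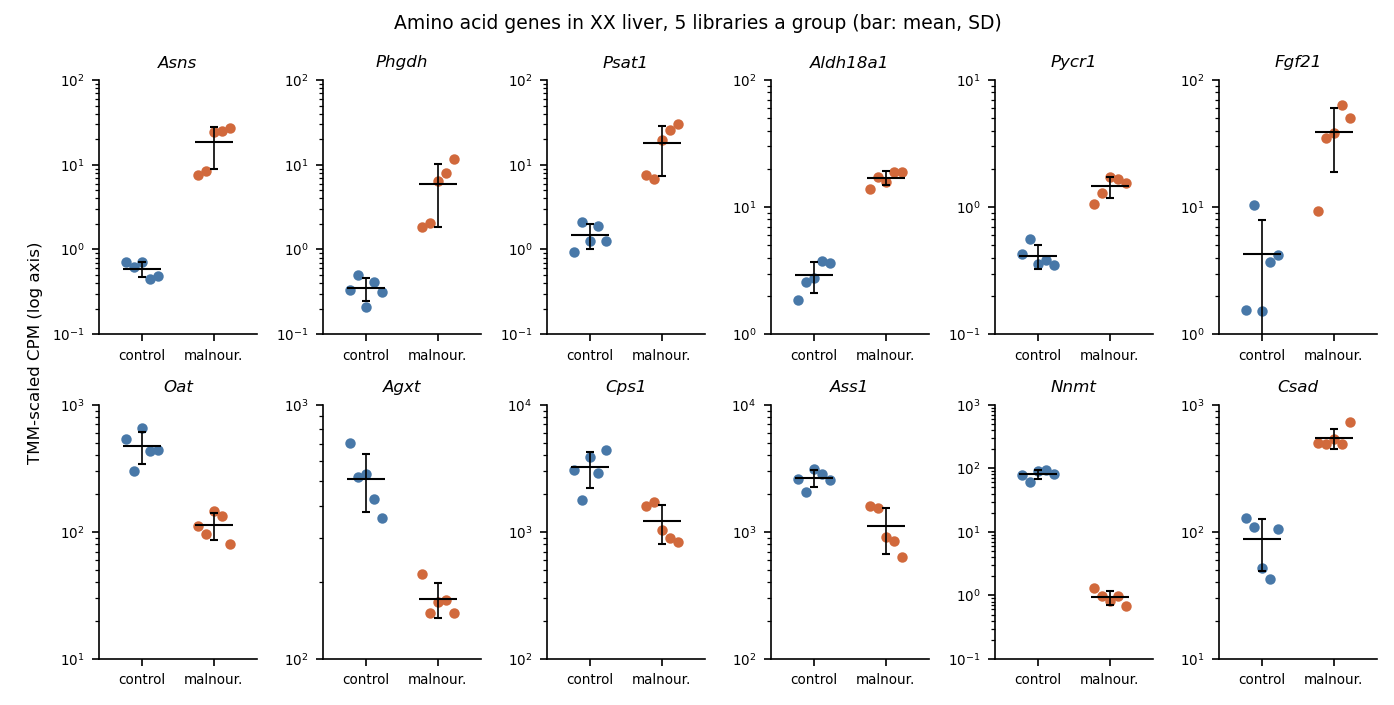
TMM-scaled CPM on log axes, whose range differs between panels, for 12 genes, Fgf21 and enzymes of amino acid metabolism, in 5 control (blue) and 5 malnourished (orange) XX livers. Points are libraries in replicate order, the horizontal bar is the mean and the whisker the SD, ending at the axis where mean minus SD falls below it (Fgf21 control). Asns, Phgdh and Psat1 are lowest in malnourished 1 and 2 within their group, and the groups of every gene but Fgf21 are apart. Over all tested genes the groups were apart for 10.19%.

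Genes of amino acid breakdown and the urea cycle fell. Of 46 tested members 29 fell and 0 rose, against 4.99% of all genes that fell, with a median log2 change of -0.47. They spanned the fate of both nitrogen and carbon. Cps1, which commits ammonia to the urea cycle (ENSMUSG00000025991, chr1:67123026-67231259), was at 3078, 1796, 3911, 2921 and 4392 CPM in controls and 1602, 1729, 1032, 902 and 834 CPM in malnourished livers. The ranges were adjacent, since control 2 lay just above malnourished 2. Cps1 fell by 1.4 on the log2 scale (SE 0.25, adjusted p = 0.0011). Ass1, which joins citrulline to aspartate, fell from 2645 ± 402 to 1105 ± 432 CPM (SD, n = 5 each; adjusted p = 9.35e-04). Otc, on the X chromosome, fell less, from 403 ± 36.4 to 288 ± 32.0 CPM (adjusted p = 0.0030), and Arg1, arginase, from 1251 ± 92.2 to 794 ± 222 CPM (adjusted p = 0.0077).

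Among the enzymes that open up single amino acids, Oat, ornithine aminotransferase, had the largest fall of the list. It was at 539, 304, 656, 432 and 440 CPM in controls and 111, 95.9, 145, 133 and 79.5 CPM in malnourished livers, a log2 change of -2.07 (SE 0.28, adjusted p = 6.90e-05). Agxt, which transaminates glyoxylate with alanine, fell by 1.57 (SE 0.19, adjusted p = 2.25e-05). Tat, which starts tyrosine breakdown, fell by 1.88 (SE 0.36, adjusted p = 0.0017), and Hpd, further along the path, by 0.87 (SE 0.17, adjusted p = 0.0022). Tdo2, the first enzyme of tryptophan breakdown, fell by 0.91 (SE 0.14, adjusted p = 2.71e-04), and Aass, of lysine breakdown, by 1.22 (SE 0.17, adjusted p = 8.30e-05).

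Sds, serine dehydratase, which turns serine into pyruvate, was at 159, 123, 168, 163 and 147 CPM in controls and 102, 83.6, 24.7, 33.2 and 26.8 CPM in malnourished livers. Malnourished 1 and 2 were the highest of their group, as they were for Cps1, Ass1 and Arg1, and all 5 lay below the controls. The change was -1.5 (SE 0.35, adjusted p = 0.0090). Gls2, liver glutaminase, fell by 1.23 (SE 0.20, adjusted p = 3.43e-04). The transaminases Got1 and Gpt fell by 1.33 (SE 0.25, adjusted p = 0.0014) and 0.83 (SE 0.17, adjusted p = 0.0034). With 1 library left out, 23 to 31 members of the list were called lower.

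Methionine and methyl group metabolism held 2 large changes in opposite directions. Nnmt, which spends methyl groups on nicotinamide (ENSMUSG00000032271, chr9:48591877-48605153), was at 78.1, 60.3, 89.7, 95.5 and 80.2 CPM in controls and 1.32, 0.986, 0.829, 0.963 and 0.676 CPM in malnourished livers. It fell 85.2-fold (log2 change -6.41, SE 0.34, adjusted p = 4.42e-10), with narrow groups far apart. Csad, which makes the taurine precursor hypotaurine from cysteine sulfinate (ENSMUSG00000023044, chr15:102176999-102204724), was at 129, 109, 52.2, 42.3 and 106 CPM in controls and 497, 490, 534, 494 and 727 CPM in malnourished livers. Its log2 change was 2.65 (SE 0.30, adjusted p = 9.54e-06), and malnourished 5 stood above the other 4. Cdo1, which supplies that substrate, was at 1776 ± 341 and 1555 ± 188 CPM (SD, n = 5 each; adjusted p = 0.43).

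Of 22 tested one-carbon genes, 6 fell, Nnmt among them, and 1, Csad, rose (2 without control 5). Of all tested genes 4.99% fell and 5.16% rose. Bhmt, which remethylates homocysteine with betaine, fell by 1.63 (SE 0.31, adjusted p = 0.0019). Gnmt, which uses up methyl groups on glycine, fell by 1.31 (SE 0.26, adjusted p = 0.0029). Ahcy, which hydrolyses S-adenosylhomocysteine, fell by 0.76 (SE 0.15, adjusted p = 0.0025), and Cbs, which starts transsulfuration, by 0.59 (SE 0.12, adjusted p = 0.0025).

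Of the genes of sugar breakdown, those called were all higher in malnourished livers. Of 20 tested, 10 rose and 0 fell, against 5.16% and 4.99% of all genes, with a median log2 change of 0.43. Gpi1, which interconverts glucose and fructose phosphates, was at 154, 226, 184, 282 and 296 CPM in controls and 566, 619, 623, 558 and 469 CPM in malnourished livers. The groups did not overlap, and the log2 change was 1.31 (SE 0.16, adjusted p = 1.48e-05). Fructose enzymes moved the same way: Khk, ketohexokinase, rose by 0.76 (SE 0.13, adjusted p = 7.21e-04) and Tkfc, triokinase, by 0.81 (SE 0.18, adjusted p = 0.0058). The groups of Khk and of Tkfc overlapped. In the pentose phosphate path, which supplies NADPH, Tkt rose by 1.03 (SE 0.13, adjusted p = 2.94e-05) and Pgd by 0.98 (SE 0.16, adjusted p = 3.48e-04). Pklr, liver pyruvate kinase, rose by 1.10 (SE 0.23, adjusted p = 0.0034), and Eno1, enolase, by 0.56 (SE 0.11, adjusted p = 0.0023).

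On the side of glucose production, Pck1, the enzyme that commits oxaloacetate to new glucose, was at 1779, 1176, 1180, 1308 and 1958 CPM in controls and 871, 432, 201, 162 and 682 CPM in malnourished livers. It fell by 1.66 (SE 0.40, adjusted p = 0.010), with no overlap and a wide malnourished group. Of 19 tested genes of glucose production and insulin signalling Pck1 was the one that fell, and 2 rose, Gckr and Pygl, of which 0 or 1 was called in the removal of any XX library but malnourished 5, or of XY control 2, 3 or 4. G6pc, the last step, was at 385 ± 172 and 370 ± 140 CPM (SD, n = 5 each; adjusted p = 0.94).

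Of 28 tested genes of fatty acid and triglyceride synthesis 9 rose and 1 fell, against 5.16% and 4.99% of all genes, with a median log2 change of 0.34. Me1, malic enzyme, which yields NADPH for lipid synthesis, was at 116, 148, 167, 230 and 184 CPM in controls and 497, 586, 427, 400 and 336 CPM in malnourished livers. The log2 change was 1.41 (SE 0.24, adjusted p = 5.99e-04). Acaca, which makes malonyl-CoA, rose by 1.19 (SE 0.27, adjusted p = 0.0060), Elovl6, which elongates palmitate, by 1.42 (SE 0.32, adjusted p = 0.0062) and Mogat1, a monoacylglycerol acyltransferase, by 1.89 (SE 0.40, adjusted p = 0.0037). The groups of Acaca and of Elovl6 overlapped. Pnpla3, a lipid droplet protein that follows sugar intake, was at 11.6, 34.4, 30.8, 41.9 and 90.2 CPM in controls and 214, 279, 249, 80.2 and 105 CPM in malnourished livers. The groups overlapped through control 5 and malnourished 4, and the log2 change was 2.15 (SE 0.50, adjusted p = 0.0084). Fasn, fatty acid synthase, was at 480, 905, 1042, 1382 and 3028 CPM in controls and 2689, 4978, 2930, 2167 and 1632 CPM in malnourished livers. The value of control 5 lay above 4 of the malnourished ones, and Fasn was not called (log2 change 1.07, SE 0.37, adjusted p = 0.074). Without control 5 it was called, at 1.6 (adjusted p = 0.0038), and without malnourished 5 at 1.22 (adjusted p = 0.0498). Srebf1, the transcription factor of lipid synthesis, was at 547 ± 322 and 531 ± 158 CPM (SD, n = 5 each; adjusted p = 0.95). Insig2, the member that fell, kept its call in the removal of 3 of the 10 XX libraries, control 4, control 5 and malnourished 5, and lost it in each of the other 7.

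Pparg, the nuclear receptor of fat storage (ENSMUSG00000000440, chr6:115360951-115490399), was at 6.66, 4.01, 5.48, 6.90 and 4.58 CPM in controls and 13.2, 13.5, 16.4, 15.6 and 17.6 CPM in malnourished livers, a log2 change of 1.47 (SE 0.23, adjusted p = 3.16e-04). Lpl, lipoprotein lipase, which normal adult hepatocytes express little, was at 29.8 ± 3.59 and 89.5 ± 7.63 CPM (SD, n = 5 each; log2 change 1.59, SE 0.18, adjusted p = 1.19e-05). Cd36, a fatty acid transporter, was at 25.8 ± 5.87 and 80.0 ± 11.1 CPM (log2 change 1.63, SE 0.36, adjusted p = 0.0053). For all 3 genes the groups did not overlap. Adipocytes also express these genes. Of 8 adipocyte markers, 2 (Fabp4 and Car3) had enough counts to be tested and 0 were called, also at an unadjusted p and by DESeq2 and limma-voom. Adipoq, Plin1, Lep, Cidea, Cfd and Retn were below the count filter. The summed level of all 8 was 935 to 1350 CPM in controls and 762 to 1130 CPM in malnourished livers. Fabp4 and Car3 carried nearly all of it (935 to 1350 and 761 to 1120 CPM), so the sum says little about the untested markers. In tissue RNA a change in cell number and a change in RNA per cell cannot be told apart.

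PPARa, the fasting receptor that turns on fatty acid oxidation, has a long list of known targets in liver. Of 45 tested (47 were written), 4 rose and 0 fell (5.16% of all genes rose), and the median log2 change was 0.15. Fgf21, a liver hormone under both PPARa and ATF4 (ENSMUSG00000030827, chr7:45613886-45615490), was at 1.56, 10.5, 1.51, 3.72 and 4.20 CPM in controls and 9.26, 34.7, 38.5, 64.1 and 50.1 CPM in malnourished livers. Control 2 was above malnourished 1. Its log2 change was 3.18 (SE 0.55, adjusted p = 6.86e-04), and 3.83 without control 2. Retsat, which saturates retinol, rose by 1.01 (SE 0.19, adjusted p = 0.0019), and Cd36 and Acaa1b, a peroxisomal thiolase, were the other members that rose. Cpt1a, which admits fatty acids to mitochondria, was not called, at 404 ± 26.2 and 334 ± 50.7 CPM (SD, n = 5 each; adjusted p = 0.27). Cyp4a14, a microsomal fatty acid hydroxylase, was at 1176, 997, 313, 339 and 834 CPM in controls and 707, 906, 913, 1033 and 1033 CPM in malnourished livers. The controls fell on both sides of the malnourished values, and the log2 change was 0.33 (SE 0.51, adjusted p = 0.76). Ppara itself was at 88.9 ± 28.0 and 66.7 ± 13.8 CPM (adjusted p = 0.44).

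**Figure D2:**
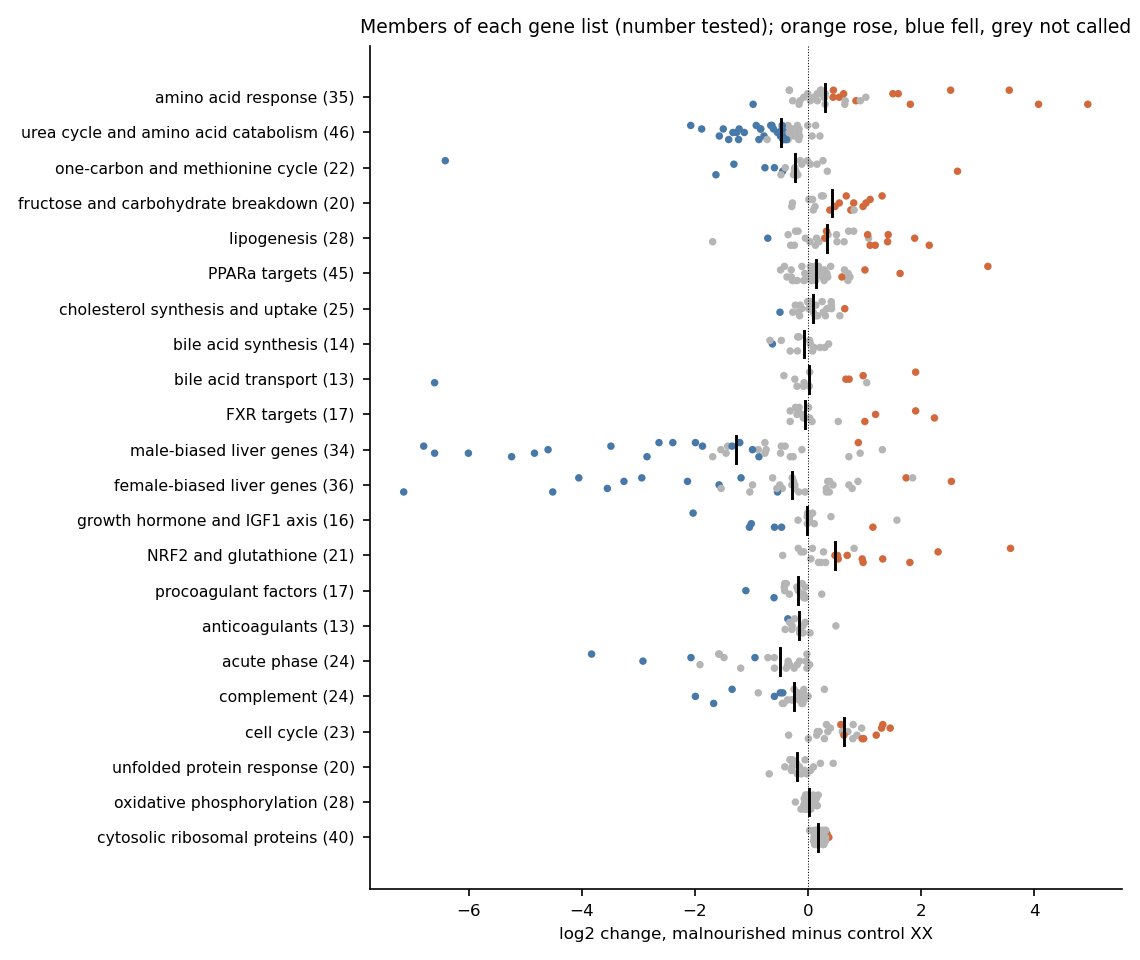
Log2 change (malnourished minus control XX) of every tested member of 22 gene lists, with the number tested in brackets. Orange points rose, blue points fell and grey points were not called, and the black tick is the median. The urea cycle and male-biased lists lie to the left (medians -0.47 and -1.27), the carbohydrate, NRF2 and cell cycle lists to the right (0.43, 0.48 and 0.64).

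Of 25 tested genes of cholesterol synthesis and uptake 1 rose and 1 fell, against 5.16% and 4.99% of all genes. Ebp, a late sterol isomerase on the X chromosome, fell by 0.49 (SE 0.11, adjusted p = 0.0074), and its groups overlapped. Acat2, which rose by 0.65 (adjusted p = 0.040), kept its call only without control 2, malnourished 4 or malnourished 5 among the XX removals.

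Bile acids are made from cholesterol in the liver, and their carriers and their receptor FXR set how much is held there. Of 14 tested synthesis genes 1 fell (2 without control 2, XY malnourished 1 or XY malnourished 4): Cyp27a1, of the acidic pathway, from 440 ± 52.3 to 285 ± 51.9 CPM (SD, n = 5 each; log2 change -0.63, SE 0.13, adjusted p = 0.0035). Cyp7a1, the rate-limiting enzyme, was at 40.3, 26.2, 34.3, 19.1 and 204 CPM in controls and 33.6, 53.0, 78.3, 121 and 56.9 CPM in malnourished livers. Its groups overlapped, with controls 1, 3 and 5 above the lowest malnourished library (log2 change 0.08, SE 0.62, adjusted p = 0.96). Cyp8b1, which makes cholic acid, was at 183 ± 68.8 and 197 ± 35.3 CPM (adjusted p = 0.85).

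Among 13 tested carriers of bile acids and bile lipids 4 rose and 1 fell, against 5.16% and 4.99% of all genes. Without control 2 or 4 or XY malnourished 1 or 4, 2 carriers fell. Slco1a1, an organic anion uptake carrier (ENSMUSG00000041698, chr6:141907282-141946962), was at 128, 220, 164, 51.0 and 161 CPM in controls and 2.16, 0.918, 0.461, 0.674 and 3.18 CPM in malnourished livers. It fell 97.1-fold (log2 change -6.60, SE 0.59, adjusted p = 4.71e-07), and every malnourished value was far below the lowest control, control 4. The carriers that rose export to blood or bile. Slc51b, a subunit of the basolateral bile acid exporter, rose by 1.91 (SE 0.45, adjusted p = 0.0093), Abcc4 by 0.98 (SE 0.19, adjusted p = 0.0023), Abcc3 by 0.73 (SE 0.18, adjusted p = 0.013) and Abcg2 by 0.67 (SE 0.14, adjusted p = 0.0035). The groups of Abcc3 overlapped. The main uptake carrier Slc10a1 was at 786 ± 77.0 and 800 ± 50.1 CPM (SD, n = 5 each; adjusted p = 0.92), and the main canalicular exporter Abcb11 at 768 ± 125 and 785 ± 203 CPM (adjusted p = 0.94).

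Of 17 tested FXR targets 4 rose and 0 fell (5.16% of all genes rose): Osgin1, Slc51b, Akr1b7, an aldo-keto reductase (2.24, SE 0.47, adjusted p = 0.0035) and Pltp, the phospholipid transfer protein (1.2, SE 0.32, adjusted p = 0.019). The FXR gene Nr1h4 was at 142 ± 26.6 and 135 ± 17.8 CPM (SD, n = 5 each; adjusted p = 0.80) and Nr0b2, its classic target, at 25.9 ± 5.08 and 37.5 ± 11.2 CPM (adjusted p = 0.41). Of 34 nuclear receptors and partners 1 rose (2 without XY malnourished 4) and 2 fell. Pparg was the one that rose. Among those that fell, Esr1, the oestrogen receptor, was at 31.2 ± 8.28 and 14.4 ± 3.11 CPM (SD, n = 5 each; log2 change -1.11, SE 0.21, adjusted p = 0.0019), and its groups did not overlap. Hnf4a, a master regulator of hepatocytes, was at 624 ± 54.4 and 558 ± 65.7 CPM (adjusted p = 0.50).

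Major urinary proteins (Mup genes), pheromone carriers that the liver secretes into urine and that growth hormone drives, filled the list of largest falls. Of the 15 called genes with the largest fall, among those with no overlap and a mean of at least 2 CPM, 8 were Mup genes. They lie in a cluster on chromosome 4 and are near copies, so reads can be shared between them and the values of single copies are uncertain. Mup10 (ENSMUSG00000078680, chr4:60578260-60582199) was at 534, 333, 998, 314 and 540 CPM in controls and 1.10, 0.884, 0.829, 0.803 and 7.86 CPM in malnourished livers. Its log2 change was -7.86 (SE 0.83, adjusted p = 3.79e-06), and -9.23 without malnourished 5, the highest of its group. The log2 change was -7.09 (SE 0.73) for Mup13, -6.00 (SE 1.16) for Mup11, -5.56 (SE 0.82) for Mup17, -5.45 (SE 1.12) for Mup15, -5.27 (SE 0.74) for Mup16, -5.24 (SE 1.11) for Mup7 and -4.75 (SE 0.66) for Mup6, with adjusted p from 3.08e-06 to 0.0041. Mup3 was at 3479, 5474, 3915, 3025 and 2416 CPM in controls and 713, 509, 457, 538 and 736 CPM in malnourished livers, a log2 change of -2.63 (SE 0.33, adjusted p = 2.70e-05). Mup20, which encodes the male pheromone darcin, was at 43.4 ± 23.2 and 16.2 ± 4.33 CPM (SD, n = 5 each) and was not called (adjusted p = 0.15). Its groups did not overlap, and it was called with the XX libraries fitted alone (-1.40, adjusted p = 0.0076).

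Of 34 tested genes that are known to be higher in male than in female liver, 16 fell and 1 rose, against 4.99% and 5.16% of all genes, with a median log2 change of -1.27. Several of the 34 are Mup genes, near copies that can share reads, so the members are not all independent. Hsd3b5, a steroid reductase, was at 22.2, 82.3, 36.9, 10.5 and 37.4 CPM in controls and 1.13, 1.09, 1.72, 0.642 and 1.97 CPM in malnourished livers (log2 change -4.83, SE 0.79, adjusted p = 4.07e-04). Serpina1e, an antitrypsin copy, fell by 3.48 (SE 0.79, adjusted p = 0.0069), although its control 4, at 254 CPM, was far below the other controls and below malnourished 5. Mup21 fell by 2.39 (SE 0.42, adjusted p = 8.85e-04). Gstp1, the gene that rose (0.89, adjusted p = 0.027), kept its call in the removal of control 2, malnourished 1 or malnourished 5 and of no other XX library.

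Of 36 tested genes known to be higher in female liver (38 were written), 10 fell and 2 rose, against 4.99% and 5.16% of all genes. The median log2 change was -0.28. With the 10 XX libraries fitted alone 14 fell and 6 rose. Sult3a1, a sulfotransferase, was at 15.2, 19.1, 29.4, 6.27 and 27.1 CPM in controls and 0, 0.068, 0.031, 0.032 and 0.479 CPM in malnourished livers. The log2 change was -7.15 (SE 0.66, adjusted p = 7.00e-07), and -9.02 without malnourished 5. Cyp3a41a, a cytochrome P450, had a log2 change of -4.51 (SE 0.50, adjusted p = 8.21e-06), and of -5.21 without malnourished 1. A1bg, a plasma protein, had one of -2.94 (SE 0.51, adjusted p = 7.83e-04), and of -3.56 without malnourished 1. Ntrk2, a neurotrophin receptor, had a log2 change of -4.05 (SE 0.34, adjusted p = 3.51e-07), Cyp3a16 of -3.25 (SE 0.46, adjusted p = 7.99e-05) and Cyp3a44 of -1.57 (SE 0.24, adjusted p = 1.94e-04). The groups of Cyp3a16 overlapped, with control 2 at 18.3 CPM and malnourished 1 at 21.7 CPM. Other classic members of this list were not called: Cyp2b9 was at 639 ± 147 and 571 ± 38.4 CPM (adjusted p = 0.90), Cyp2a4 at 1112 ± 164 and 1454 ± 137 CPM (adjusted p = 0.73) and Hao2 at 61.4 ± 11.6 and 101 ± 11.6 CPM (adjusted p = 0.28; SD, n = 5 each). The groups of Hao2 did not overlap, and with the XX libraries fitted alone it was called (0.74, adjusted p = 0.0018), as was Cyp2a4 (0.40, adjusted p = 0.036). The Cyp3a and Cyp2 genes have near copies, with the same limit as the Mup genes. Sult2a1 rose, by 2.54 (SE 0.68, adjusted p = 0.021), and lost its call without control 3 (2.33, adjusted p = 0.063). Cyp2a22, the other gene that rose (1.74, adjusted p = 0.025), lost its call without control 2, 4 or 5 or malnourished 4.

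**Figure D3:**
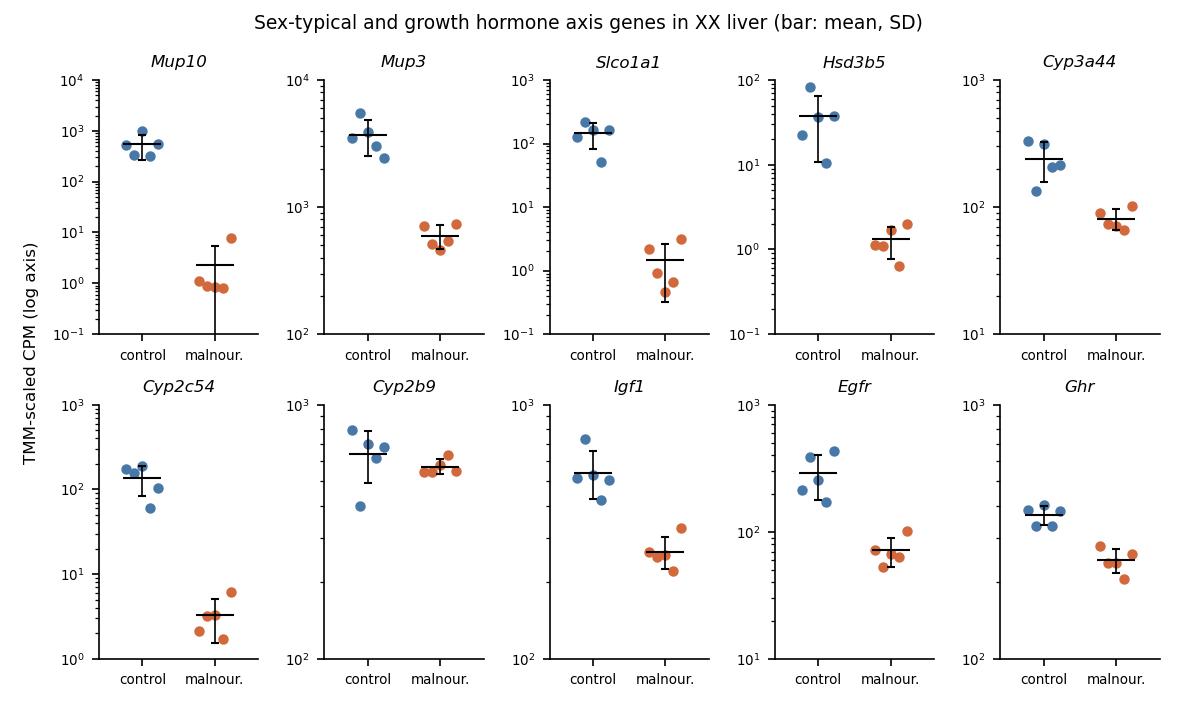
TMM-scaled CPM on log axes, whose range differs between panels, for 10 genes in 5 control (blue) and 5 malnourished (orange) XX livers. Points are libraries in replicate order, the horizontal bar is the mean and the whisker the SD, ending at the axis where mean minus SD falls below it (Mup10 malnourished). Of the 10 genes only Cyp2b9 shows overlapping groups, and the gap is wide for Mup10 (314 CPM or more in controls, 7.86 or less in malnourished livers). Over all tested genes the groups did not overlap for 10.19%.

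The growth hormone and IGF1 axis had 5 genes that fell and 1 that rose among 16 tested, against 4.99% and 5.16% of all genes. Igf1, the growth factor that liver sends into the blood (ENSMUSG00000020053, chr10:87858265-87937042), was at 517, 730, 529, 421 and 507 CPM in controls and 263, 252, 256, 222 and 327 CPM in malnourished livers. It fell 2.05-fold (log2 change -1.03, SE 0.16, adjusted p = 2.77e-04), with no overlap. Igfals, which holds IGF1 in its plasma complex, fell from 192 ± 33.6 to 96.0 ± 10.2 CPM (SD, n = 5 each; adjusted p = 0.0011), Ghr, the growth hormone receptor, from 368 ± 32.2 to 244 ± 26.7 CPM (adjusted p = 0.0095) and Igfbp4 from 1707 ± 101 to 1237 ± 95.0 CPM (adjusted p = 0.011). Egfr, which growth hormone is known to raise in liver, was at 213, 385, 254, 172 and 436 CPM in controls and 71.8, 53.0, 67.1, 63.3 and 102 CPM in malnourished livers (log2 change -2.03, SE 0.36, adjusted p = 8.44e-04). Stat5b, the transcription factor of the growth hormone signal, was at 76.9 ± 15.2 and 78.6 ± 10.4 CPM (adjusted p = 0.93). Lepr, the gene that rose (1.15, adjusted p = 0.034), was called without control 2 or 4 or malnourished 1 or 2 and in no other XX removal.

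Drug-metabolizing enzymes moved both ways, with 8 of 31 higher and 7 lower, against 5.16% and 4.99% of all genes. Outside that list of 31, sulfotransferases of the Sult2a family, which conjugate steroids and bile acids, held the largest rise among called genes with no overlap and a mean of at least 2 CPM. Sult2a3 (ENSMUSG00000074375, chr7:14067446-14123044) was at 0.614, 0, 0.414, 2.14 and 0.312 CPM in controls and 38.1, 40.6, 44.3, 51.9 and 18.1 CPM in malnourished livers. Its log2 change was 5.74 (SE 0.55, adjusted p = 1.46e-06), and 6.90 without control 4. Sult2a5, a near copy that may share its reads, rose by 3.80 (SE 0.61, adjusted p = 3.48e-04) and by 4.52 without control 4. Within the list, Cyp2c54 (ENSMUSG00000067225, chr19:40037940-40073827) was at 174, 156, 188, 60.1 and 104 CPM in controls and 2.12, 3.20, 3.29, 1.70 and 6.22 CPM in malnourished livers, a log2 change of -5.35 (SE 0.39, adjusted p = 3.83e-08). Cyp2c50, of the same family, fell by 1.81 (SE 0.19, adjusted p = 3.08e-06), whereas Cyp2c55 rose by 2.22 (SE 0.41, adjusted p = 0.0013). Ephx1, microsomal epoxide hydrolase, was at 157 ± 22.2 and 493 ± 61.3 CPM (SD, n = 5 each; log2 change 1.65, SE 0.18, adjusted p = 7.73e-06), and Ces2a, a carboxylesterase, rose by 1.12 (SE 0.15, adjusted p = 4.18e-05).

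Of 21 tested targets of NRF2, the oxidant-sensing factor, and glutathione genes 10 rose and 0 fell, against 5.16% and 4.99% of all genes. The median log2 change was 0.48. Gstm1, a glutathione transferase, was at 795, 695, 702, 803 and 602 CPM in controls and 1706, 2583, 1638, 1897 and 1183 CPM in malnourished livers (log2 change 1.32, SE 0.22, adjusted p = 4.88e-04). Gstm3, a relative with similar sequence, rose by 2.30 (SE 0.32, adjusted p = 7.99e-05), Nqo1, a quinone reductase, by 0.96 (SE 0.20, adjusted p = 0.0034) and Gpx4, which reduces lipid peroxides, by 0.54 (SE 0.11, adjusted p = 0.0023). Nfe2l2, the NRF2 gene, was at 79.9 ± 4.60 and 99.4 ± 13.2 CPM (SD, n = 5 each; adjusted p = 0.12). It was not called, but its groups did not overlap. With the XX libraries fitted alone it was called (0.33, adjusted p = 0.040), as by limma-voom (0.045) and with library size alone (0.044).

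The calls of clotting genes in XX livers are set beside the 10.1% of all genes called in either direction. Whether these lists differ from that share was not tested. Clotting runs through a cascade of factors made in hepatocytes, several of which need vitamin K for their gamma-carboxylation. Of 17 tested procoagulant factors 2 fell and 0 rose (4.99% of all genes fell), with a median log2 change of -0.17. F9 (ENSMUSG00000031138, chrX:59999464-60030759), a vitamin K-dependent factor of the intrinsic pathway, was at 187, 162, 187, 145 and 174 CPM in controls and 113, 106, 111, 106 and 127 CPM in malnourished livers. The groups did not overlap, and F9 fell 1.51-fold (log2 change -0.60, SE 0.10, adjusted p = 4.88e-04). F11 (ENSMUSG00000031645, chr8:45241174-45262031), which activates F9, was at 124, 145, 144, 85.0 and 135 CPM in controls and 72.1, 39.3, 47.5, 38.8 and 98.2 CPM in malnourished livers. Malnourished 5 lay above control 4, and the log2 change was -1.10 (SE 0.26, adjusted p = 0.0087). Klkb1, prekallikrein, next to F11 in the genome, was at 222 ± 42.9 and 166 ± 9.64 CPM (SD, n = 5 each). It was not called (log2 change -0.42, SE 0.15, adjusted p = 0.075), but was without control 5 (adjusted p = 0.045) or XY malnourished 5 (0.040). The count of procoagulant genes that fell was 4 without control 2 and also with the XX libraries fitted alone.

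The common pathway was not called. Prothrombin (F2) was at 2158 ± 52.5 and 2099 ± 141 CPM (log2 change -0.04, SE 0.09, adjusted p = 0.84), and F10 at 629 ± 44.3 and 597 ± 43.9 CPM (-0.07, SE 0.09, adjusted p = 0.70; SD, n = 5 each). The fibrinogen chains Fga, Fgb and Fgg were at -0.05 (SE 0.14), -0.10 (SE 0.12) and -0.17 (SE 0.14) on the log2 scale, with adjusted p of 0.89, 0.67 and 0.50. F7, of the extrinsic pathway, was at 155 ± 15.2 and 136 ± 14.8 CPM (adjusted p = 0.32). Under library size alone the values of F2, F10 and Fga turned to above zero, still not called.

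Of 13 tested anticoagulants 1 fell (2 with the XX libraries fitted alone) and 0 rose, against 4.99% and 5.16% of all genes. Pros1, protein S (ENSMUSG00000022912, chr16:62854307-62929346), a vitamin K-dependent cofactor, was at 49.3, 46.2, 53.9, 51.2 and 47.4 CPM in controls and 35.7, 34.5, 42.1, 39.1 and 42.6 CPM in malnourished livers. The log2 change was -0.35 (SE 0.08, adjusted p = 0.0076), and with scaling by library size alone -0.25 (adjusted p = 0.061), which loses the call. Serpinc1, antithrombin, was at 2701 ± 58.5 and 2773 ± 218 CPM (SD, n = 5 each; adjusted p = 0.84), and Proc, protein C, at 670 ± 88.2 and 648 ± 54.8 CPM (adjusted p = 0.83). Of 9 tested fibrinolysis genes 1 rose and 2 fell, against 5.16% and 4.99% of all genes. Cpb2, which protects clots from lysis, was at 331, 346, 367, 338 and 347 CPM in controls and 257, 232, 244, 223 and 251 CPM in malnourished livers (log2 change -0.52, SE 0.13, adjusted p = 0.010). Anxa2, a cell surface receptor of plasminogen, rose by 0.81 (SE 0.19, adjusted p = 0.0081). Plg, plasminogen, was not called (-0.28, SE 0.11, adjusted p = 0.12), and Hrg (-0.34, adjusted p = 0.037) lost its call in the removal of any XX library but control 2.

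In the vitamin K cycle 1 of 7 tested genes rose and 1 fell, against 5.16% and 4.99% of all genes. The carboxylase Ggcx was at 70.3 ± 8.88 and 69.8 ± 3.47 CPM (SD, n = 5 each; log2 change -0.01, SE 0.09, adjusted p = 0.97), and the epoxide reductase Vkorc1 at 49.0 ± 10.7 and 52.7 ± 1.55 CPM (adjusted p = 0.71). Cyp4f14, of the P450 family that degrades vitamin K, was at 411, 361, 487, 313 and 440 CPM in controls and 193, 139, 144, 114 and 175 CPM in malnourished livers. It fell by 1.4 (SE 0.19, adjusted p = 4.99e-05). Nqo1, given above with the NRF2 targets, was the gene that rose.

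**Figure D4:**
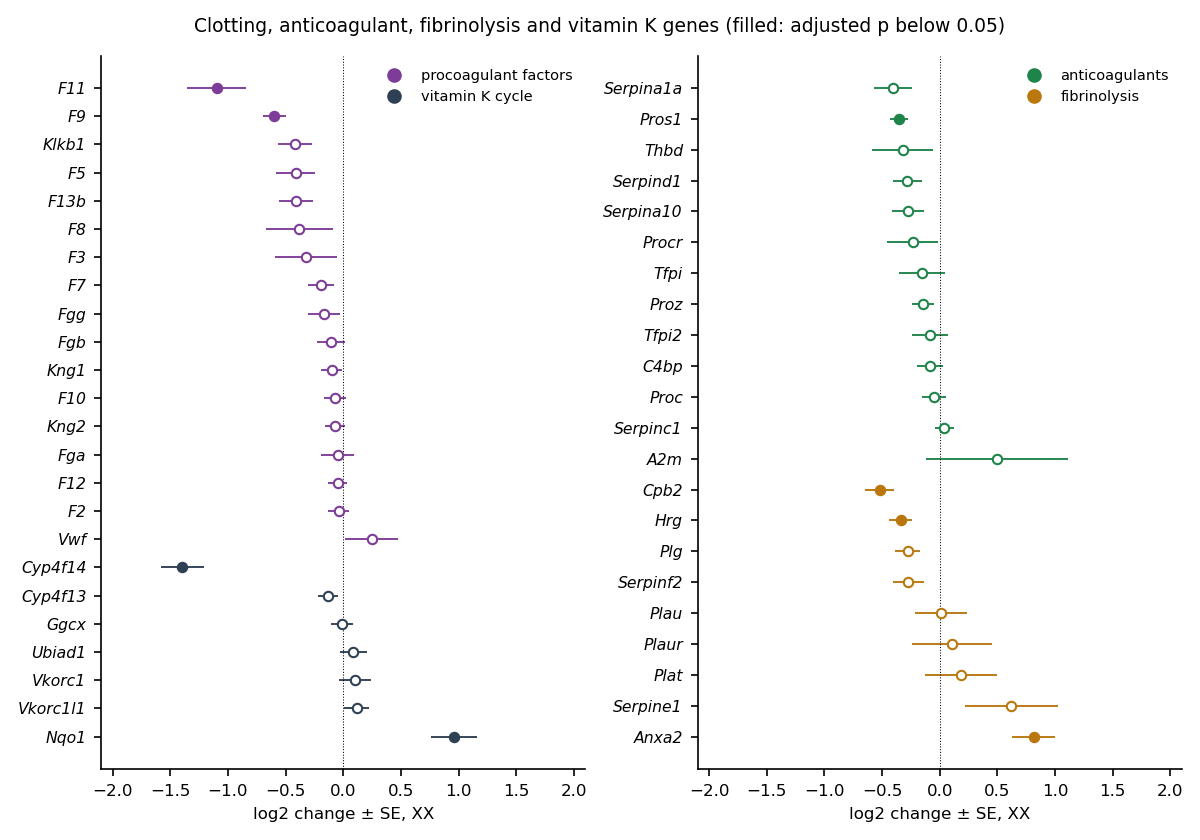
Log2 change with its SE (malnourished minus control XX) of every tested procoagulant and vitamin K cycle gene (left) and anticoagulant and fibrinolysis gene (right). Filled points had an adjusted p below 0.05: F11, F9, Cyp4f14, Pros1, Cpb2 and Hrg lie below zero and Nqo1 and Anxa2 above it, while F2, the fibrinogen chains and Serpinc1 sit near zero.

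Acute phase plasma proteins, which inflammation induces, held 4 members that fell and 0 that rose among 24 tested (4.99% of all genes fell). The median log2 change was -0.49. Without XY control 1 or XY control 4, which share the fit, 7 fell, and with the 10 XX libraries fitted alone 10 fell. Orm1, orosomucoid (ENSMUSG00000039196, chr4:63344560-63348163), was at 579, 885, 586, 830 and 544 CPM in controls and 140, 89.0, 68.4, 71.3 and 84.7 CPM in malnourished livers. It fell 7.55-fold (log2 change -2.92, SE 0.30, adjusted p = 3.08e-06). Orm2, its near copy, fell by 2.07 (SE 0.39, adjusted p = 0.0016), and Crp, C-reactive protein, by 0.94 (SE 0.13, adjusted p = 6.59e-05). Hp, haptoglobin, was at 2596 ± 375 and 2566 ± 275 CPM (SD, n = 5 each; adjusted p = 0.98). Complement had 6 members that fell and 0 that rose among 24 (4.99% of all genes fell). Among them were C9, C8b and C8a, genes of the membrane attack complex, though not every listed gene of that complex was called. C9 was at 236, 244, 211, 238 and 227 CPM in controls and 75.0, 60.2, 46.0, 50.0 and 59.9 CPM in malnourished livers (log2 change -1.99, SE 0.37, adjusted p = 0.0014), C8b fell by 1.67 (SE 0.31, adjusted p = 0.0013) and C8a by 1.34 (SE 0.26, adjusted p = 0.0018). C8a and C9 are also members of the male-biased list. Serping1, the C1 inhibitor, fell by 0.59 (SE 0.11, adjusted p = 0.0017).

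Hepatocytes differ along the lobule, from the portal vein, where urea is made, to the central vein, where glutamine is made. Markers of both ends fell: 9 of 13 periportal and 7 of 14 pericentral markers, with 0 that rose in either list (4.99% of all genes fell). The summed level of the pericentral markers was 6520 to 9600 CPM in controls and 4730 to 5850 CPM in malnourished livers, and that of the periportal markers, dominated by Alb, 108000 to 151000 and 113000 to 130000 CPM. Several are amino acid enzymes given above (Oat, Gls2, Ass1, Arg1, Sds). Pigr, the carrier of immunoglobulin A into bile (ENSMUSG00000026417, chr1:130826684-130852249), was at 955, 785, 928, 1125 and 1194 CPM in controls and 156, 151, 82.0, 90.2 and 55.1 CPM in malnourished livers (log2 change -3.22, SE 0.28, adjusted p = 3.97e-07). Slc1a2, a pericentral glutamate transporter, fell by 1.10 (SE 0.15, adjusted p = 8.30e-05), and Cyp2e1, a pericentral P450, by 0.73 (SE 0.15, adjusted p = 0.0035). Glul, glutamine synthetase, the defining pericentral gene, was at 1048 ± 139 and 1013 ± 52.1 CPM (SD, n = 5 each; adjusted p = 0.85). Cyp2f2, a periportal P450, fell by 0.86 (SE 0.18, adjusted p = 0.0043).

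Among cell division genes 8 of 23 rose and 0 fell, against 5.16% and 4.99% of all genes, with a median log2 change of 0.64. Ccnb2, a mitotic cyclin, was at 2.22, 2.14, 1.10, 1.52 and 1.11 CPM in controls and 3.62, 2.99, 3.59, 5.14 and 4.70 CPM in malnourished livers (log2 change 1.33, SE 0.27, adjusted p = 0.0028). Plk1, a mitotic kinase, rose by 1.46 (SE 0.31, adjusted p = 0.0045), Aurkb by 0.96 (SE 0.22, adjusted p = 0.0082) and Mcm6, a helicase subunit, by 0.58 (SE 0.14, adjusted p = 0.0084), with overlapping groups for Mcm6. The count was 4 without control 3 or without malnourished 3. Which cells carry these transcripts cannot be read from whole liver.

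Markers of other cells were checked beside these results. No marker was called among 17 of Kupffer cells and macrophages (2 at an unadjusted p below 0.05 by edgeR, 0 called by DESeq2 or limma-voom), 15 of sinusoidal endothelium (0, 0 and 0), 10 of cholangiocytes (4 at an unadjusted p, 0 called by DESeq2 and 2 by limma-voom) and 5 of neutrophils (0, 0 and 0). Clec4f, the Kupffer cell marker, was at 228 ± 35.2 and 204 ± 17.7 CPM, Stab2 of endothelium at 98.3 ± 7.64 and 83.2 ± 4.97 CPM and Lrat of stellate cells at 17.6 ± 3.71 and 20.2 ± 2.64 CPM (SD, n = 5 each). The groups of Stab2 did not overlap. The 13 stellate markers summed to 630 to 695 CPM in controls and 508 to 608 CPM in malnourished livers. Of them 4 lay above zero, Lrat among them, and the median log2 change was -0.22. Of the 15 endothelial markers 3 lay above zero, and 1 was called lower with the XX libraries fitted alone. Of the 17 Kupffer cell and macrophage markers 2 lay above zero. B cell markers summed to 8.29 to 12.5 CPM in controls and 13.8 to 18.8 CPM in malnourished livers, and 3 of 7 rose (5.16% of all genes rose), with Pax5 at 0.795 ± 0.039 and 1.62 ± 0.267 CPM (SD, n = 5 each; adjusted p = 0.0063). Red cell markers summed to 177 to 426 and 381 to 496 CPM, and 6 of 8 rose, among them Hba-a2, a globin (1.13, SE 0.25, adjusted p = 0.0053). Only 2 of them were called without control 4 or without control 5. Exocrine pancreas markers summed to 18.4 to 40.3 CPM in controls and 6.87 to 11.2 CPM in malnourished livers. Of 10, Amy2a5 and Cpb1 were at 0 in all XX libraries, 2 were tested, and Cela1, which carries most of the sum, fell by 2.09 (SE 0.29, adjusted p = 7.56e-05). The part of these cells in the changes above was not tested.

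Ribosomal and mitochondrial genes were compared as lists. Of 40 ribosomal protein genes 2 rose and 0 fell, and all 40 values lay above zero, between 0.03 and 0.37 on the log2 scale. The count was 0 without any 1 of control 1, 3, 4 or 5 or malnourished 1, 2, 3 or 4, and 17 without control 2. Of 28 nuclear-encoded respiratory chain genes none was called by edgeR (2 at an unadjusted p below 0.05), 0 by DESeq2 and 2 by limma-voom. All 13 mitochondrially encoded genes lay below zero, and 1, mt-Co1, was called (-0.65, SE 0.17, adjusted p = 0.017). It lost the call without control 3 (-0.55, adjusted p = 0.067), and 2 genes were called without control 4 or XY malnourished 4 and 5 without XY malnourished 5. With the XX libraries fitted alone 6 were called. Mitochondrial genes took 2.74 to 3.85% of counts in controls and 2.40 to 2.84% in malnourished livers.

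In the remaining lists, 3 of 23 lipoprotein and sterol export genes rose (Lpl among them), 1 of 12 polyamine and creatine genes rose, 2 of 12 hepatocyte markers fell, 1 of 13 T and NK cell markers rose and 1 of 13 stellate cell markers fell. Of 28 interferon response genes 2 fell, and 4 without control 1. Of 17 circadian clock genes 2 fell, and fewer without any of the XX libraries but control 1, control 2 and malnourished 1, and 0 with the XX libraries fitted alone. Of 21 autophagy and proteasome genes 2 rose and 3 fell, and of 20 fibrosis and matrix genes 1 rose. Fewer autophagy genes rose without control 3 or 5 or malnourished 1 or 2, and fewer fell without control 1 or 3 or malnourished 2, 3, 4 or 5. The fibrosis call was lost without control 1, 3, 4 or 5 or malnourished 3. No gene was called by edgeR among 19 of ribosome biogenesis (1 at an unadjusted p below 0.05, 1 called by DESeq2 and 1 by limma-voom), 21 of iron and haem (6, 1 and 3) and 22 of the peroxisome (4, 1 and 2).

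Other large changes fell outside the lists. Cd63, a tetraspanin of late endosomes, was at 5.01, 6.80, 6.13, 6.21 and 4.93 CPM in controls and 34.4, 36.1, 54.0, 59.3 and 52.2 CPM in malnourished livers (log2 change 3.02, SE 0.22, adjusted p = 3.83e-08). Slc5a1, a sodium-glucose cotransporter, was at 2.33 ± 0.624 and 16.9 ± 0.597 CPM (SD, n = 5 each; log2 change 2.86, SE 0.24, adjusted p = 3.37e-07). Slc39a5, a zinc transporter, rose by 2.52 (SE 0.38, adjusted p = 2.14e-04), Sorcs2, a sorting receptor, by 4.18 (SE 0.48, adjusted p = 1.05e-05) and Adgrg2, an adhesion receptor on the X chromosome, by 3.01 (SE 0.41, adjusted p = 6.90e-05). The 2 remaining genes among the 15 largest rises, of called genes with no overlap and a mean of at least 2 CPM, were Ly6d, at 2.46 (SE 0.57, adjusted p = 0.0082), and 9130409I23Rik, at 2.83 (SE 0.46, adjusted p = 3.76e-04). For Ly6d malnourished 1, at 2.97 CPM, was just above the highest control, at 2.83 CPM. Among the falls, Cib3, a calcium-binding protein, was at 8.25 ± 2.27 and 0.281 ± 0.116 CPM (log2 change -4.88, SE 0.42, adjusted p = 3.95e-07), and Dct, dopachrome tautomerase, at 6.36 ± 1.57 and 0.253 ± 0.140 CPM (-4.67, SE 0.34, adjusted p = 3.83e-08; SD, n = 5 each).

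Where the XX response differed from the XY response was tested directly, as the difference between the diet effects. This difference was called for 280 of 13391 genes (2.09%), 113 with the XX value higher and 167 with it lower. The count was 158 without XY control 2, 182 without XX malnourished 3, 514 without XX control 5, 608 without XY control 4 and 850 without the 3 libraries numbered 62, so it rests on single libraries. Of the 36 female-biased genes 26 had a called difference, all with the XX value lower. Some of these, such as Cyp2b9, Hao2, A1bg and Sult3a1, were near zero in XY controls. The 8 genes with the smallest p were Cyp2c54, Cyp3a44, Cyp2b9, Cyp2c69, Rassf3, Hpgd, Prlr and Acnat2. Cyp2c54 fell in XX, as given above, and was at 0.46 in XY (SE 0.34), a difference of -5.81 (SE 0.52, adjusted p = 5.47e-06). Cyp3a44 was at -1.57 in XX and 1.70 in XY (difference -3.27, SE 0.35, adjusted p = 7.95e-05), Cyp2c69 at -2.13 and 3.94 (difference -6.07, SE 0.71, adjusted p = 1.26e-04). Cyp2b9 was at -0.16 in XX and 8.80 in XY (difference -8.97, SE 1.04, adjusted p = 1.26e-04), and the difference was -10.01 without XY control 4. Its mean was 0.426 CPM in XY controls and 201 CPM in malnourished XY livers, so the size of the difference rests on values near zero. Hpgd, which inactivates prostaglandins, was at -0.54 and 0.95, Acnat2, a peroxisomal acyltransferase, at -1.10 and 1.67, and Prlr, the prolactin receptor, at -0.62 and 1.86. In XX Prlr was not called (adjusted p = 0.060), but its groups did not overlap. With the XX libraries fitted alone it was called (-0.61, adjusted p = 0.0096). Rassf3 rose in XX (1.03, SE 0.13, adjusted p = 1.71e-05) and was at -0.48 in XY.

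The PPARa targets had 11 of 45 members with a called difference, all lower in XX. Cyp4a14, at 0.33 in XX, was at 6.48 in XY (difference -6.15, adjusted p = 2.93e-04), and the difference was -7.62 without XY control 4. Cyp4a10, a near copy, was at -0.07 in XX and 3.99 in XY (difference -4.07, adjusted p = 6.58e-04; -5.05 without XY control 4). The difference was called for 0 of the 46 genes of amino acid breakdown and for 1 of the 35 amino acid response genes. It was called for 0 of the 17 procoagulant factors, 13 anticoagulants and 9 fibrinolysis genes. A difference that misses the threshold does not show that the responses were alike. For F9 it was -0.44 (adjusted p = 0.12) and for Igf1 -0.90 (adjusted p = 0.0502).

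**Figure D5:**
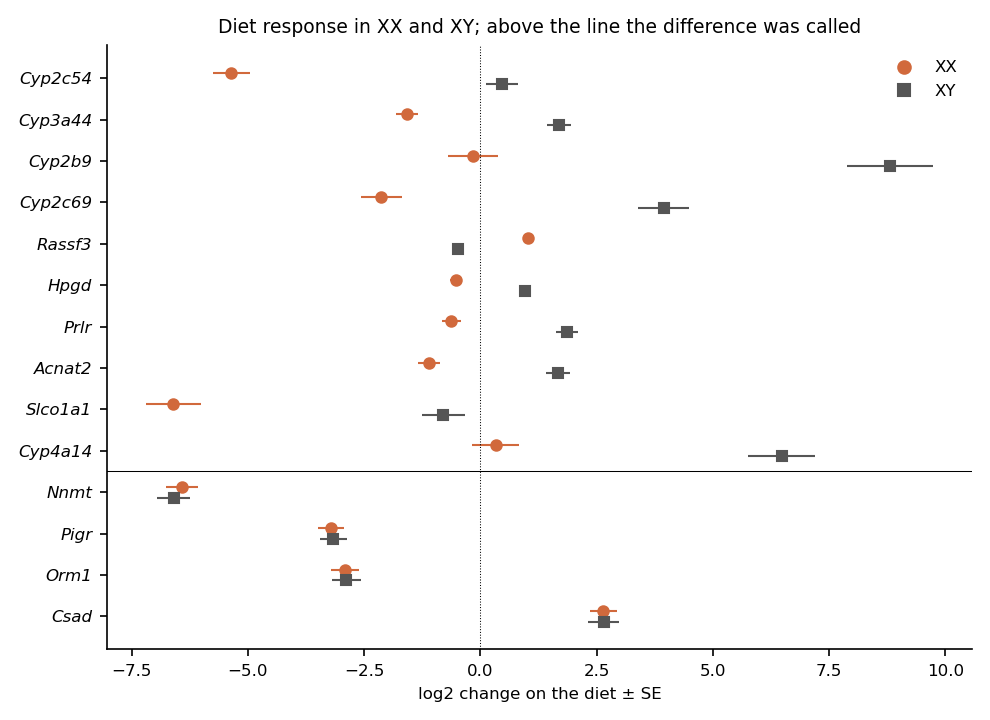
Log2 change on the diet with its SE for 14 genes in XX (orange circles) and XY (grey squares). The difference between the responses was called for the 10 genes above the line, such as Cyp2c54 (-5.35 in XX, 0.46 in XY), and not for Nnmt, Pigr, Orm1 and Csad below it, whose points lie side by side.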

How the data were processed

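Liver total RNA of 10 XX and 9 XY mice was sequenced as stranded libraries, per the labels' protocols. The authors deposited whole-number counts per gene. Trim Galore, HISAT2, featureCounts and mm10 are named in the submitters' processing notes. Versions, annotation and strand setting are not given in the sources used here, so overlapping and antisense genes may share reads. XX libraries held 21377385 to 33501907 counts, and the number of animals limits the precision.

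Samples were grouped by sex and diet from the labels. Genes passing edgeR's filterByExpr (minimum count 10, minimum total 15) held 99.977% of counts. One model with 4 group means was fitted with edgeR 4.0.16 (R 4.3.3; TMM scaling, quasi-likelihood, 15 residual degrees of freedom), with Benjamini-Hochberg adjustment over all tested genes and calls at 0.05. SE is the log2 change divided by the root of the F statistic. The script was tested on simulated counts. Alternatives were other scalings and filters, DESeq2 1.42.0, limma 3.58.1 voom, the XX libraries alone, a term for label number series, a replicate block, and removal of single libraries or of the 3 numbered 62. Symbols turned into dates (27) were replaced by the reference table's names for their gene IDs, and GENCODE M21, which held 21886 of the IDs, gave the coordinates. Promoters are RefSeq's, build GRCm38.p6.

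Named genes were the 15 largest called changes per direction with no overlap between groups and a mean of at least 2 CPM over the XX libraries, the 8 smallest p-values of the XX and XY difference at a mean of at least 2 CPM, and members of gene lists. Acaa1b, Osgin1, Gckr and Pygl are list members named for their calls. The members and lists were chosen with earlier results of these data known. Some list members are not reported here by name. Libraries were compared for duplicates, and none was found.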

Additional observations from a re-analysis of the deposited data

Results flagged for a closer look

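In 19 of 370 groups of 5 XX libraries examined for the named genes, the highest or lowest library stood apart from the other 4 by more than the Dixon limit of 0.71 of the group's range, which chance passes in about 1 of 20 groups. Control 5 was highest for Srebf1 (1092.8 CPM, others 306.75 to 528.76) and Cyp7a1 (203.69). Malnourished 5 was highest for Csad (726.57), Ppara (91.268, others 58.508 to 62.012), Mup10 (7.8568), Mup13 (1.7178, others 0.42981 to 0.68032), Serpina1e (276.34, others 101.4 to 150.2), Sult3a1 (0.47873), C8a (215.34, others 98.098 to 126.7) and Insig2 (176.37, others 106.09 to 123). Malnourished 1 was highest for Mup6 (0.62232 CPM), A1bg (49.127, others 10.715 to 19.769) and Orm1 (140.39). Control 4 was highest for Sult2a3 (2.1399 CPM) and lowest for Nr1i3, the receptor CAR (49.782, others 63.477 to 68.776). The other values that stood apart were Abcb11 in control 1 (983.74 CPM, high), Abcc4 in control 3 (2.0422, low), Cyp8b1 in malnourished 2 (134.57, low) and Vkorc1 in malnourished 3 (50.073, low).

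The XX response differed from the XY response for 27 of 185 named genes by the test of the difference, given here as XX minus XY on the log2 scale. Among cytochrome P450 genes it was -5.81 for Cyp2c54, -3.27 for Cyp3a44, -8.97 for Cyp2b9, -6.07 for Cyp2c69, -2.11 for Cyp2c50, -6.67 for Cyp2a4, -4.39 for Cyp2a22, -5.41 for Cyp3a16, -6.15 for Cyp4a14 and -4.07 for Cyp4a10. It was -5.81 for Slco1a1, -1.64 for Abcc3, -1.61 for Nr1i3, -6.44 for Hao2, -2.77 for Acnat2, -1.49 for Hpgd, -2.48 for Prlr and -3.28 for Lepr. The difference was positive for Rassf3 (1.51), Gstp1 (2.46) and Saa1 (4.55, and 3.70 without XY control 1), an acute phase gene. In XX it was not called (log2 change -1.19, adjusted p = 0.19), but was with the XX libraries fitted alone (-1.18, adjusted p = 0.0044), without the 3 libraries numbered 62 (adjusted p = 0.033) and without XY control 4 (adjusted p = 0.043). It was -8.23 for A1bg (-9.03 without XY control 4, -8.85 without XX malnourished 1), -6.92 for Mup10 (-8.30 without XX malnourished 5), -4.76 for Mup13 and -11.18 for Sult3a1. The last was -13.04 without XX malnourished 5, -12.87 without XY control 4 and -9.84 without XY malnourished 2. Without XY control 4 it was -7.25 for Hao2. Mean levels in XY controls were near zero for Sult3a1 (0.0084 CPM), A1bg (0.091) and Hao2 (0.14), so the size of their differences is uncertain. In malnourished XY livers they were 0.217, 3.92 and 21.3 CPM, and Sult3a1 was not called in XY (4.03, SE 1.85, adjusted p = 0.15). Cyp2c54 (84.5 CPM) and Slco1a1 (460 CPM) were not near zero in XY controls. For Mup3 the difference was -1.89, and it lost its call in 10 of the 19 removals of a library (adjusted p up to 0.098). For Cyp4f14 it was -1.1, and it lost its call in 8 of 19 (adjusted p up to 0.089).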

How the results depend on the processing

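The number of genes called in XX was 691 higher and 668 lower. It was 1161 and 425 with scaling by library size alone, and 1367 and 1448 with limma-voom and quality weights. Removing 1 library gave 473 to 750 higher and 433 to 712 lower, both lowest without XX control 3. The count of called differences between XX and XY was 280, and became 615 with DESeq2, 655 with limma-voom, 850 without the 3 libraries numbered 62, and 158 to 608 with 1 library removed. RLE scaling gave 683 and 671 in XX, DESeq2 814 and 864, no filter 582 and 648, and the 10 XX libraries alone 817 and 719. The cause was not tested. Of 185 named genes 137 were called, and 129 of these in every removal of 1 library; the others were Sult2a1, mt-Co1, Acat2, Gstp1, Lepr, Hrg, Insig2 and Cyp2a22. No called gene changed sign under these alternatives. Of the 48 not called, 18 changed sign under at least 1. Signed values printed for genes not called are therefore not claims of a direction. Sult2a1 lost its call under DESeq2 (2.53, adjusted p = 0.062). Same-numbered XX mice had correlations of -0.067 to 0.114 in their deviations from the group means, and 2 of 5 correlated best with their own number, so the numbers do not pair them. With the replicate block 588 genes were higher and 610 lower, and the difference was called for 223. Depth sets which genes pass the count filter, and genes below it were not tested.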
